A study of Mus musculus with 8 samples.

Results

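Complex I (NADH:ubiquinone oxidoreductase) genes were examined in ventricular RNA from tumor-bearing and PBS-injected male mice. The genes were the protein-coding rows of the deposited count table whose symbol begins with Nduf, which gave 45 of the 43346 genes in the table, of which 22032 were protein-coding. They comprised 7 nuclear-encoded core subunits, 29 accessory subunits, Ndufa4 with its paralogue Ndufa4l2, and 7 assembly factors named Ndufaf. All 45 passed the filter on low counts, which left 16111 genes for testing, and each had at least 114 counts in every mouse. The study asked which ventricular transcripts differ in mice that carry a lung tumor. The 4 LLC1 mice (LLC1-2, LLC1-3, LLC1-5 and LLC2-2) were C57BL/6 males given 1000000 cells of LLC1, a Lewis lung carcinoma line grown from a C57BL/6 mouse tumor, under the skin of the flank at 7 weeks of age. The 4 PBS mice (PBS1-1, PBS1-3, PBS2-1 and PBS2-5) were males of the same strain and age given the saline vehicle. Tissue was taken 14 days after injection in both groups, the labels name no transgene or other treatment, and the tumor model is a single implanted cell line studied at a single time.

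Complex I sits in the inner mitochondrial membrane, takes electrons from NADH, passes them along iron-sulfur clusters to ubiquinone, and pumps protons as it does so. Its core subunits carry out the chemistry and the pumping and are encoded partly in the nucleus and partly in mitochondrial DNA, while the accessory subunits surround and stabilize the core. Assembly factors help to build the complex and are not part of the finished enzyme, and heart muscle, which depends on oxidative metabolism, holds large amounts of it.

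Library totals ranged from 15342214 to 19747596 counts in the LLC1 mice and from 12480706 to 16192158 in the PBS mice. Levels are given below as CPM, counts per 1000000 counts of a library, after scaling by TMM factors, with n = 4 mice per group throughout. PBS1-1 stood apart from the other libraries. It lay at 35.34 on the second principal component, which carried 25.2% of the variance, whereas the other 7 mice lay between -23.28 and 8.71. The level of Ttn, the giant sarcomere protein titin, were 18482 CPM in PBS1-1 and 7893 to 9030.4 CPM in the other 7 mice. All 14 cardiomyocyte markers were detected, with Myh6, the main adult mouse ventricular myosin, at 44721 to 56459.5 CPM, while the summed level of 3 adipocyte markers was at most 0.821 CPM. The 7 complex I subunits of mitochondrial DNA, mt-Nd1 to mt-Nd6 with mt-Nd4l, are listed at 0 in every mouse and were not analysed here.

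RefSeq promoter sequences, from 250 bases before to 50 bases after the start of transcription in build GRCm38.p6, were matched by symbol to 39 of the 45 genes. Ndufa2, Ndufa4l2, Ndufaf6, Ndufb9 and Ndufs1 were among those with no entry in the table. The 100 bases just upstream of the start are shown here, 5′ to 3′ on the gene's strand, for 5 genes that were higher in tumor-bearing mice, so that the start regions behind those transcripts can be seen; Ndufa7 has several listed starts and is not shown.
Ndufv1, chr19:4012756-4012855, minus strand: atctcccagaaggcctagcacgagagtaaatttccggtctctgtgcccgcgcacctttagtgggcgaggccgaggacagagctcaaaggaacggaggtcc
Ndufs7, chr10:80249349-80249448, plus strand: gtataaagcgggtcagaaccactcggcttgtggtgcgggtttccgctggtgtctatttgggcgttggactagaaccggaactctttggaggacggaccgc
Ndufb8, chr19:44555443-44555542, minus strand: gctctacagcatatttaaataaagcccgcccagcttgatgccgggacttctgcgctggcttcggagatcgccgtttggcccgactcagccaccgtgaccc
Ndufa13, chr8:69902021-69902120, minus strand: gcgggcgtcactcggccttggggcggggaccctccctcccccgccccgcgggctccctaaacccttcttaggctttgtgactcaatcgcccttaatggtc
Ndufa1, chrX:37191239-37191338, minus strand: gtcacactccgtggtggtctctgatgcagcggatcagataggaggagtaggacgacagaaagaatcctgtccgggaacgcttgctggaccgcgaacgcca
Between 57% and 67% of these bases were G or C, within the 49% to 80% found over all the listed starts of the 39 genes.

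Some words bound by regulators of respiratory genes were looked for on both strands of the 39 promoters. The word AAGATGGCG, part of the site of YY1, a zinc finger factor of many housekeeping and mitochondrial genes, was found in 5 promoters, or 12.8%, against 1.64% of the 27025 gene symbols in the table. The 5 windows of 30 bases that hold it are shown with the word in capitals, because they include Ndufs7, which had the highest fold change of all 45 genes.
Ndufs7, chr10:80249463-80249492, plus strand: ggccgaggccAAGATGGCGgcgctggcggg
Ndufa9, chr6:126849096-126849125, minus strand: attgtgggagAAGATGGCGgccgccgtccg
Ndufc1, chr3:51408914-51408943, minus strand: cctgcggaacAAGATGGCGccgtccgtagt
Ndufs4, chr13:114388045-114388074, minus strand: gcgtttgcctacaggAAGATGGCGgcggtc
Ndufs6, chr13:73328433-73328462, minus strand: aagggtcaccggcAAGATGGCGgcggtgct
In these genes the word began 22 to 35 bases into the transcript. Ndufs7 alone among them passed the test between groups. The word CGCATGCG, the core of the site of NRF1, a nuclear respiratory factor, was found in 4 promoters, or 10.3%, against 2.07% of all symbols.
Ndufa8, chr2:36049329-36049358, minus strand: gtcgctggagaCGCATGCGcagatggtacc
Ndufa11, chr17:56717692-56717721, plus strand: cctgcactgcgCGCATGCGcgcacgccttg
Ndufaf4, chr4:24897960-24897989, plus strand: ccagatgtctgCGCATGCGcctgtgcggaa
Ndufaf5, chr2:140170652-140170681, plus strand: agtcccgttggCGCATGCGcctaatagaaa
These windows, with the word in capitals, belong to a pair of accessory subunits and a pair of assembly factors, none of which passed the test between groups. The word CCGGAAG, bound by ETS factors such as GABPA, was found in the promoters of Ndufaf1, Ndufb6, Ndufb7, Ndufs3 and Ndufs8, which is 12.8% against 9.93% of all symbols. TCAAGGTCA, bound by the estrogen-related receptors, was found in 0 of the 39 promoters, against 0.466% of all symbols. The words overlap no other word searched in these windows and are a description of the sequence, not of binding.

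A minority of complex I transcripts was higher in the ventricles of tumor-bearing mice, none was lower, and all differences were small. Of the 45 genes, 7 were higher at an adjusted p under 0.05 by edgeR's quasi-likelihood test, among them Ndufv1, Ndufs7, Ndufa7, Ndufb8, Ndufa13 and Ndufa1. This is 15.6% of the genes, against 4.12% of all 16111 tested genes that were higher by the same criterion. None of the 45 was lower by that criterion, against 4.61% of all tested genes, and no member was lower by limma-voom or DESeq2. At an unadjusted p under 0.05 there were 22 higher and 0 lower, against 12.4% and 13.0% of all tested genes. Every LLC1 mouse lay above every PBS mouse for 12 genes, or 26.7%, against 8.89% of all tested genes, and no gene had every LLC1 mouse below every PBS mouse, against 8.27%. The log2 fold changes ran from -0.17 to 0.43, with 37 above 0 and a median of 0.17, whereas the median of all tested genes was -0.01. The highest estimate, for Ndufs7, was a fold of 1.34. The genes share mice, libraries and scaling and are not independent of each other.

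**Figure D1:**
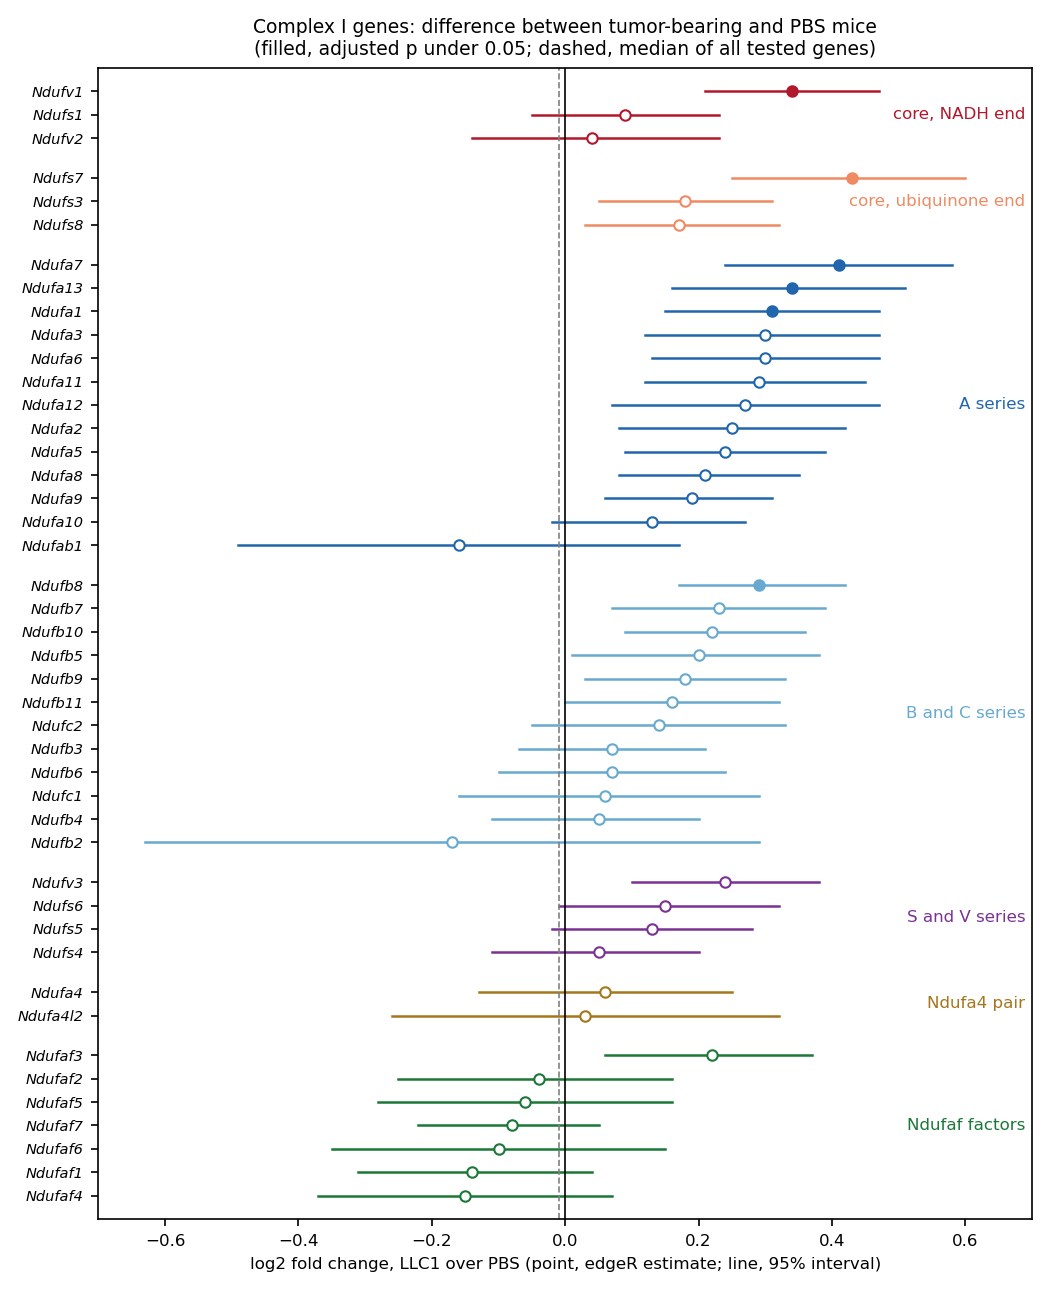
Log2 fold change of 44 of the complex I genes, LLC1 over PBS, as points with 95% intervals, grouped and colored by role; filled points have an adjusted p under 0.05 and the dashed line is the median of all tested genes, -0.01. The 6 filled points lie between 0.29 and 0.43, and 6 of the 7 Ndufaf factors lie below 0.

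The count of higher genes depended on single mice. It was 1 without PBS1-3, with Ndufv1 as that gene, and 4 without LLC1-2, LLC1-3, LLC1-5 or PBS2-1 in turn. Without PBS1-1, the library that stood apart, it was 17, and the 10 added genes were Ndufa2, Ndufa3, Ndufa5, Ndufa6, Ndufa8, Ndufa12, Ndufaf3, Ndufb5, Ndufb10 and Ndufs3. It was 7 without LLC2-2 and 8 without PBS2-5. Over all tested genes, 1.3% were higher without PBS1-3, 1.7% to 2.25% in the fits with 4, 5.56% without PBS1-1, 2.16% without LLC2-2 and 4.99% without PBS2-5, against 4.12% with all mice. The median log2 fold change of the 45 genes lay between 0.12 and 0.22 in these fits.

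Of the core subunits of the NADH-oxidizing end, Ndufv1 passed the test, and the differences between these subunits were not tested. Ndufv1, which binds FMN and accepts electrons from NADH, was at 1098, 999.9, 1032 and 958 CPM in LLC1-2, LLC1-3, LLC1-5 and LLC2-2, and at 759, 803, 810.0 and 863 CPM in PBS1-1, PBS1-3, PBS2-1 and PBS2-5. All LLC1 mice lay above all PBS mice, with a gap between 863 and 958 CPM. With means of 1022 ± 59.2 and 809 ± 42.3 CPM (SD), it had a log2 fold change of 0.34 ± 0.07 (SE) with an adjusted p of 0.0119. Ndufv1 passed the test whichever mouse was left out, with adjusted p-values from 0.00921 to 0.0499.

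The other subunits of this end did not pass the test. Ndufs1, which carries several of the iron-sulfur clusters, was at 814, 818, 885 and 786 CPM in the LLC1 mice and 841, 779, 792 and 693 CPM in the PBS mice, in the same order of mice as above. Ndufv2, the iron-sulfur partner of Ndufv1, was at 431, 393, 409 and 368 CPM in the LLC1 mice and 468, 389, 357 and 341 CPM in the PBS mice. The groups overlapped for both genes, and PBS1-1 was the highest PBS mouse in each. For Ndufs1 the log2 fold change was 0.09 ± 0.07 (adjusted p = 0.473), with a 95% interval from -0.05 to 0.23. For Ndufv2 it was 0.04 ± 0.09 (adjusted p = 0.818), with an interval from -0.14 to 0.23.

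Of the core subunits of the ubiquinone-reducing end, Ndufs7, Ndufs3 and Ndufs8 each had an estimate above 0 and an unadjusted p under 0.05, and Ndufs7 passed the adjusted threshold. Ndufs7, which carries the last iron-sulfur cluster before ubiquinone and whose start region is printed above, was at 629.6, 531, 594 and 513 CPM in the LLC1 mice and 376, 421, 408 and 483 CPM in the PBS mice. The groups did not overlap, PBS1-1 being the lowest mouse and PBS2-5 the highest of its group. Its log2 fold change was 0.43 ± 0.09 with an adjusted p of 0.015. Leaving out PBS1-3 took the adjusted p of Ndufs7 to 0.0564, and leaving out any other mouse kept it at 0.0486 or below.

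Ndufs3 and Ndufs8 were closer between groups. Ndufs3, which links the iron-sulfur chain to the ubiquinone site, was at 309, 285, 299.8 and 279 CPM in the LLC1 mice and 283, 259, 245 and 250.3 CPM in the PBS mice. Ndufs8, which holds a pair of the clusters, was at 312, 273, 298 and 259 CPM in the LLC1 mice and 242, 248, 249.6 and 273 CPM in the PBS mice. For each gene the groups met at a single PBS mouse, PBS1-1 for Ndufs3 and PBS2-5 for Ndufs8. The log2 fold change was 0.18 ± 0.07 for Ndufs3 (adjusted p = 0.112) and 0.17 ± 0.07 for Ndufs8 (adjusted p = 0.157). Without PBS1-1, Ndufs3 had a log2 fold change of 0.22 and an adjusted p of 0.0314.

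**Figure D2:**
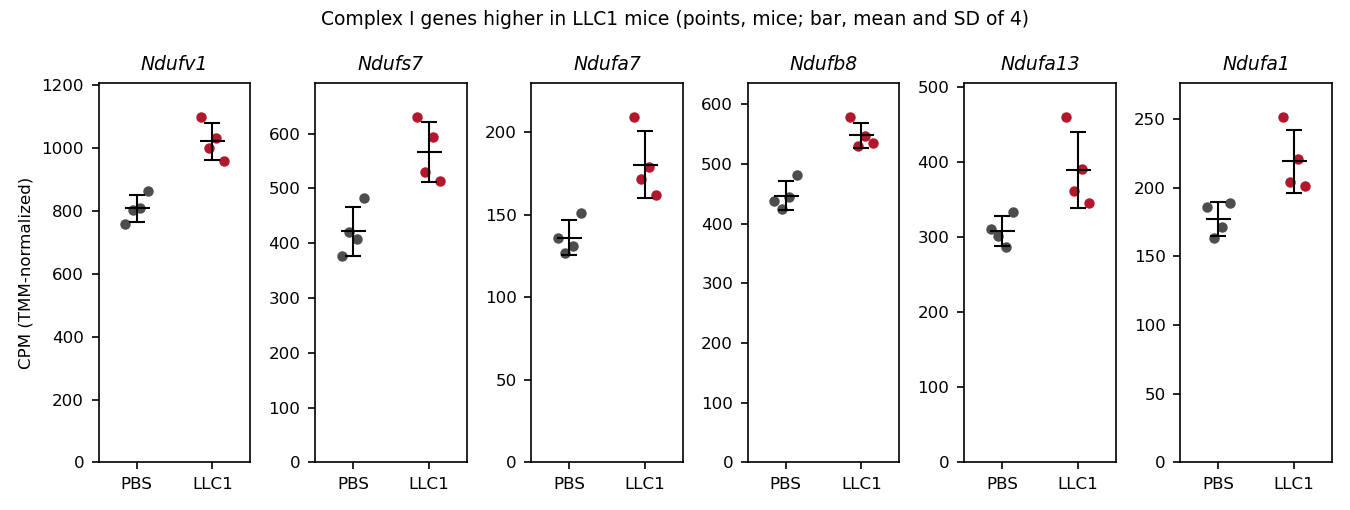
Level of 6 complex I genes with an adjusted p under 0.05, in CPM on axes that start at 0, with a point for each mouse and the mean and SD of 4 mice per group. In each panel the lowest LLC1 mouse lies above the highest PBS mouse, with the smallest relative gap for Ndufa13 (345 against 333 CPM).

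The accessory subunits of the A series, which wrap the matrix arm and the foot of the membrane arm, had the highest median of the roles, 0.27 over 13 genes, and 12 of the 13 estimates were above 0. Of these 13, 3 were higher at the adjusted threshold, 11 were higher at an unadjusted p under 0.05, and 6 had every LLC1 mouse above every PBS mouse, against 4.12%, 12.4% and 8.89% of all tested genes. Ndufa7, a small subunit near the ubiquinone site, was at 209, 172, 179 and 162 CPM in the LLC1 mice and 136, 127, 131 and 151 CPM in the PBS mice. The groups did not overlap, and LLC1-2 was well above the other tumor-bearing mice. This gave a log2 fold change of 0.41 ± 0.09 with an adjusted p of 0.0151, and without PBS1-3 the adjusted p was 0.0639.

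Ndufa13, also known as GRIM-19 and needed for assembly of the complex, was at 459, 361, 391 and 345 CPM in the LLC1 mice and 311, 301, 286 and 333 CPM in the PBS mice. LLC1-2 was again the highest mouse, and the lowest LLC1 mouse, LLC2-2, was just above the highest PBS mouse. Ndufa13 had a log2 fold change of 0.34 ± 0.09 with an adjusted p of 0.0362. Tssk6, on the opposite strand, covers 30% of the exon bases of Ndufa13 and had at most 5 counts in any mouse, and whether the counting used strand is not given in the sources used here. Without LLC1-2, LLC1-3, LLC1-5, PBS1-3 or PBS2-1 the adjusted p was 0.0613 to 0.11.

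Ndufa1, a small membrane subunit encoded on the X chromosome, was at 251, 204, 221 and 201 CPM in the LLC1 mice and 186, 163, 171 and 189 CPM in the PBS mice. All LLC1 mice lay above all PBS mice, with LLC1-2 the highest. Its estimate was 0.31 ± 0.08 on the log2 scale with an adjusted p of 0.039. Leaving out LLC1-2, LLC1-3, LLC1-5, PBS1-3 or PBS2-1 gave adjusted p-values from 0.0627 to 0.129, and an offset for gene length gave 0.201.

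Among the other A series genes, Ndufa5, Ndufa8 and Ndufa9 had groups that did not overlap but adjusted p-values of 0.0695, 0.0753 and 0.0868. Ndufa9, which sits beside the ubiquinone channel, had PBS mice between 489 and 506 CPM and LLC1 mice between 529 and 602 CPM. Ndufa6, a LYR-motif protein that binds the acyl carrier protein, had a log2 fold change of 0.30 and an adjusted p of 0.0539. Ndufa3 and Ndufa11, both membrane subunits, had log2 fold changes of 0.30 and 0.29 with adjusted p-values of 0.0622 and 0.0549. Ndufa2, Ndufa12 and Ndufa10 had estimates of 0.25, 0.27 and 0.13 and adjusted p-values of 0.0892, 0.121 and 0.307. These members are therefore described by their values and not as changed.

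Ndufab1, the mitochondrial acyl carrier protein that also serves fatty acid synthesis, was the only A series gene with an estimate below 0. It was at 267, 243, 260.4 and 242 CPM in the LLC1 mice and 425, 246, 233 and 229 CPM in the PBS mice. PBS1-1 lay far above every other mouse, and the other PBS mice overlapped the LLC1 mice. The log2 fold change was -0.16 ± 0.17 (adjusted p = 0.586) with PBS1-1 and 0.10 ± 0.06 (adjusted p = 0.323) without it. Ndufab1 also has near-identical transcripts, at 99.8% identity with Gm4459 and 99.4% with Ndufab1-ps, so its counts could be shared with them.

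In the B and C series, accessory subunits of the membrane arm, 1 of 12 genes (8.33%) was higher at the adjusted threshold, near the 4.12% of all tested genes, and 11 estimates were above 0, with a median of 0.15. Ndufb8, a membrane arm subunit that is widely used as a protein marker of the assembled complex, was at 578, 530.3, 547 and 536 CPM in the LLC1 mice and 438, 424, 444 and 482 CPM in the PBS mice. The groups did not overlap, and the gap between them was about as wide as the span of the LLC1 mice. Ndufb8 had a log2 fold change of 0.29 ± 0.06 with an adjusted p of 0.0163, and without PBS1-3 the adjusted p was 0.071. Of its exons, 4.3% are shared with Gm20538 on the same strand.

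Among the other B and C genes, Ndufb10, a membrane arm subunit on the intermembrane side, had groups that did not overlap, at 531 to 609 CPM in the LLC1 mice and 452 to 504 CPM in the PBS mice, with an adjusted p of 0.0595. Ndufb7, Ndufb5, Ndufb9, Ndufb11 and Ndufc2 had estimates of 0.23, 0.20, 0.18, 0.16 and 0.14, with adjusted p-values from 0.105 to 0.384. Ndufb3, Ndufb6, Ndufc1 and Ndufb4 were between 0.05 and 0.07, with adjusted p-values from 0.586 to 0.771. Of these, Ndufb4 has a transcript identical over the aligned stretch to that of Ndufb4c, and 39.0% of the exons of Ndufb6 overlap Smim27. For Ndufb5, 12.3% of the exon bases overlap Mrpl47 on the opposite strand, with 530 aligned bases at 100% identity. Mrpl47 had up to 2809 counts in a mouse, so that counts of Ndufb5 could be shared with it.

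Ndufb2 was the B series gene with an estimate below 0. It was at 127, 98.1, 113 and 99.4 CPM in the LLC1 mice and 213, 95.2, 91 and 96.3 CPM in the PBS mice. PBS1-1 was 2.26 times the mean of the other PBS mice, and those lay below all LLC1 mice. The log2 fold change was -0.17 ± 0.23 (adjusted p = 0.685) with PBS1-1 and 0.22 ± 0.09 (adjusted p = 0.126) without it, so that the sign rested on that library.

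The accessory subunits of the S and V series lie on the matrix arm or on the intermembrane face. None of the 4 passed the adjusted threshold, against 4.12% higher and 4.61% lower among all tested genes. All 4 estimates were above 0. Ndufv3, a small neighbor of Ndufv1, was at 292, 258, 272 and 243 CPM in the LLC1 mice and 218, 211, 237 and 233 CPM in the PBS mice. The groups did not overlap, and the log2 fold change of 0.24 ± 0.07 had an adjusted p of 0.0536. Ndufs6, a zinc-binding subunit, and Ndufs5, on the intermembrane side, had estimates of 0.15 and 0.13 with adjusted p-values of 0.283 and 0.311. Ndufs4, whose loss causes Leigh syndrome in patients and in mice, was at 199.6, 165, 187 and 164 CPM in the LLC1 mice and 193, 165, 168 and 168 CPM in the PBS mice. All PBS values of Ndufs4 lay within the range of the LLC1 mice, and the log2 fold change was 0.05 ± 0.08 with a 95% interval from -0.11 to 0.20 (adjusted p = 0.767). Similar transcripts of other genes, at 95.8% to 99.5% identity, were found for Ndufs5, Ndufs6, Ndufs3, Ndufa12 and Ndufb11, so that counts of these genes could be shared.

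Ndufa4, named as a complex I subunit and now placed in complex IV, was at 879.8, 732, 796 and 696 CPM in the LLC1 mice and 879, 725, 697 and 679 CPM in the PBS mice. LLC1-2 and PBS1-1 were equally high and the groups overlapped, with a log2 fold change of 0.06 ± 0.10 (adjusted p = 0.743). Ndufa4l2, the paralogue that hypoxia is known to induce, was at 12.6, 13.5, 12.1 and 16.5 CPM in the LLC1 mice and 9.78, 12.5, 15.2 and 15.7 CPM in the PBS mice. It was low in every mouse, the groups overlapped, and the log2 fold change was 0.03 ± 0.15 with a 95% interval from -0.26 to 0.32 (adjusted p = 0.919).

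The 7 Ndufaf assembly factors included no gene past the adjusted threshold, against 4.12% higher and 4.61% lower among all tested genes. The groups overlapped for all 7 factors, as they did for 13345 of the 16111 tested genes. The estimates of the factors were below 0 for 6 of 7, with a median of -0.08. Of the 38 other genes, 36 had estimates above 0, with a median of 0.18. The difference between these medians was not tested. With offsets for GC content and all mice, 5 of the 7 estimates of the factors were below 0 and their median was -0.01. Without PBS1-1, 4 of the 7 estimates were below 0 and the median was -0.04. With both changes, a setting chosen after seeing the data, the median was 0.02. Ndufaf1, which with Ecsit and Acad9 builds the membrane arm, was at 35 to 40.3 CPM in the LLC1 mice and 35.9 to 46.6 CPM in the PBS mice, with a log2 fold change of -0.14 ± 0.09 (adjusted p = 0.362). Ndufaf4, which works on the early matrix arm, had a log2 fold change of -0.15 ± 0.11 (adjusted p = 0.427). Its partner Ndufaf3 was the exception, with a log2 fold change of 0.22 ± 0.08 (adjusted p = 0.117), and 0.27 (adjusted p = 0.0352) without PBS1-1. Ndufaf2, a paralogue of Ndufa12, had an estimate of -0.04. In GENCODE M21, 65.6% of its exon bases overlap B230220B15Rik on the other strand. That overlap of 1955 bases exceeds the 679 bases deposited as the length of Ndufaf2, so the share is not of the counted exons.

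Of the factors, 3 had the lowest levels per length of all 45 genes. Ndufaf5, which hydroxylates Ndufs7, was at 21.8, 19.2, 19.5 and 16.7 CPM in the LLC1 mice and 23.9, 20.6, 18 and 18.2 CPM in the PBS mice. Ndufaf7, a mitochondrial methyltransferase, was at 25.7, 25.4, 26.6 and 26.7 CPM in the LLC1 mice and 28.2, 28.3, 25.3 and 29.1 CPM in the PBS mice. Ndufaf6, an early assembly factor of the matrix arm, was at 13.6, 11.7, 14.3 and 10.7 CPM in the LLC1 mice and 16.5, 13.5, 11.9 and 12.3 CPM in the PBS mice. In all 3 the groups overlapped, and the log2 fold changes were -0.06 for Ndufaf5, -0.08 for Ndufaf7 and -0.10 for Ndufaf6, with adjusted p-values of 0.773, 0.489 and 0.66. The summed level of the 7 factors was 191 ± 10.1 CPM in LLC1 and 200.2 ± 21.9 CPM in PBS.

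Assembly factors without the Ndufaf name were looked at beside these. Of 12 listed, 9 were matched by symbol and all 9 were tested. Only the listed symbols were searched, so an unmatched gene may be present under another name. At the adjusted threshold 0 were higher and 0 lower, against 4.12% and 4.61% of all tested genes. At an unadjusted p under 0.05, 1 was higher and 0 lower, against 12.4% and 13.0%. The median log2 fold change was 0.03. Ecsit had 113 to 123 CPM in the LLC1 mice and 98.3 to 109 CPM in the PBS mice, groups that did not overlap, with an adjusted p of 0.0954. Acad9, Foxred1, Timmdc1 and Tmem126b had estimates of 0.03, 0.03, -0.05 and -0.09.

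Levels per gene length differed widely within the family. The lengths are those deposited with the counts, from 419 bases for Ndufa1 to 8086 for Ndufs1. They were not checked against the transcripts expressed here, so part of these differences may rest on the annotation. In PBS mice, CPM per kilobase of gene length was 1514 for Ndufa4, 849.7 for Ndufb9 and 423 for Ndufa1, and the lowest values were 11 for Ndufaf6, 11.3 for Ndufaf5 and 12 for Ndufaf7. The 3 lowest did not differ beyond their spread over mice. In LLC1 mice Ndufa4, Ndufb9 and Ndufa1 were at 1577, 964 and 523. The Ndufaf factors were at 11 to 27.5 CPM per kilobase in PBS mice and the accessory subunits of the S and V series at 90.2 to 384. Ndufb9, a LYR-motif subunit of the membrane arm, was at 707, 592, 628 and 583 CPM in the LLC1 mice and 604, 543, 524 and 541 CPM in the PBS mice. In GENCODE M21, 19.5% of its exon bases are shared with Gm49356 on the same strand, a gene absent from the deposited counts. The groups of Ndufb9 overlapped at PBS1-1, with a log2 fold change of 0.18 ± 0.08 (adjusted p = 0.16).

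Many members had the same mice at the top and bottom of each group. LLC1-2 had the highest level of its group for 39 of the 45 genes and LLC2-2 the lowest for 35. Among the PBS mice, PBS1-1 was highest for 27 and PBS2-1 lowest for 21. The median log2 ratio of the genes to the PBS mean was 0.30, 0.09, 0.21 and 0.07 in the LLC1 mice and 0.11, -0.02, -0.08 and -0.00 in the PBS mice, so that PBS1-1 lay above LLC1-3 and LLC2-2 on this measure. The summed level of all 45 genes was 15288, 13321, 14398 and 12940.2 CPM in the LLC1 mice and 13121, 12000.2, 11753 and 12141 CPM in the PBS mice. The groups overlapped at LLC2-2 and PBS1-1, the means were 13987 ± 1065 and 12254 ± 599.8 CPM, and the ratio was 1.14.

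**Figure D3:**
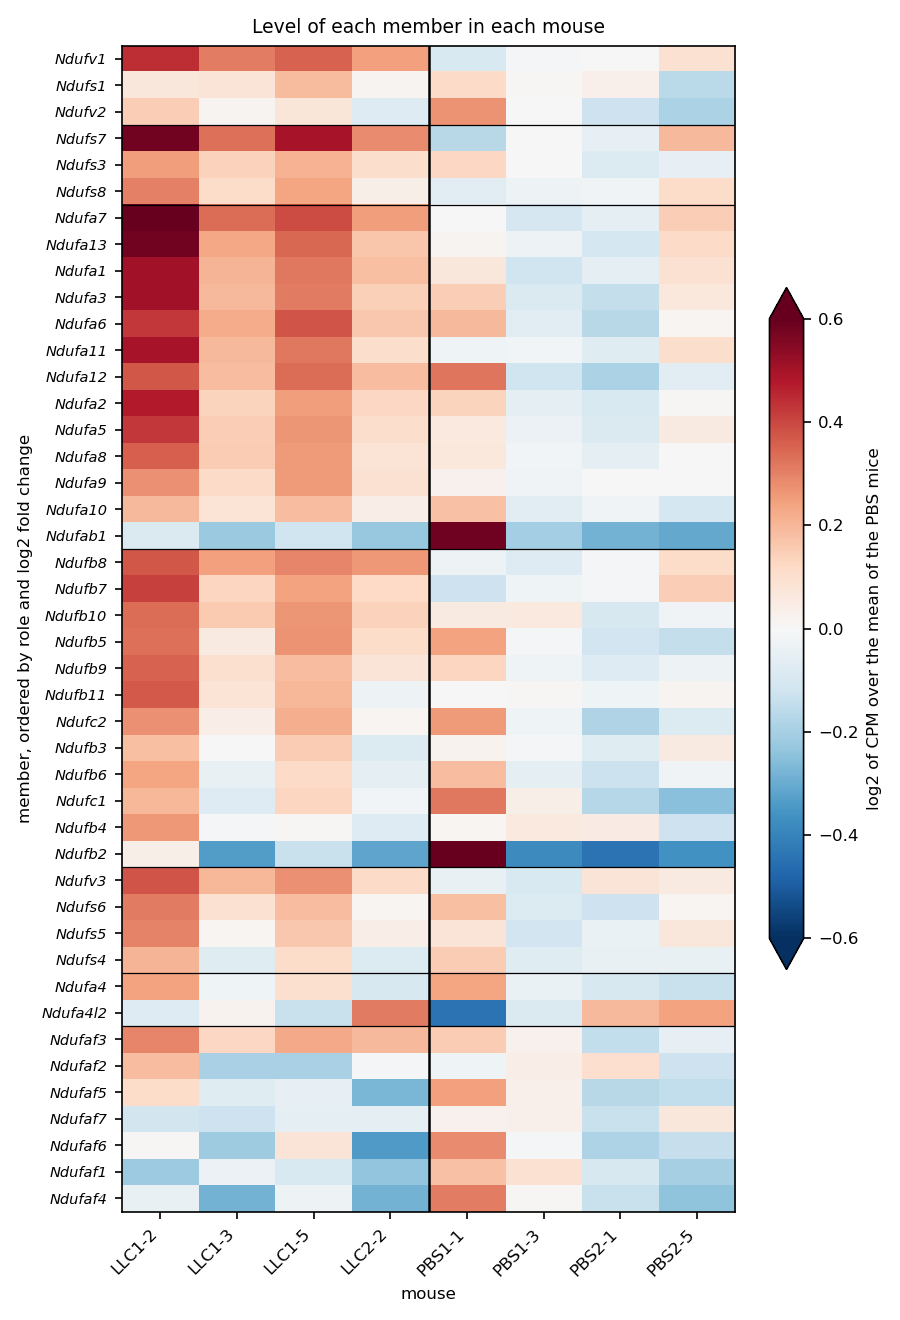
Log2 ratio of each gene's CPM to the mean of the PBS mice (color, cut at -0.6 and 0.6), with 44 genes in rows ordered by role and fold change and the 8 mice in columns. LLC1-2 is the most strongly raised column, with a median of 0.30, and Ndufb2 and Ndufab1 in PBS1-1 stand out at 213 and 425 CPM.

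The other respiratory complexes were looked at to see whether complex I differed from them. Their nuclear genes were picked by the start of the symbol, without a check that each encodes a subunit. Of these 48 genes, 46 were tested, 11 were higher (23.9%) and 0 lower, with a median log2 fold change of 0.16. By complex, 2 of 4 tested genes of complex II, 3 of 9 of complex III, 3 of 16 of complex IV and 3 of 17 of complex V were higher, with medians of 0.18, 0.22, 0.16 and 0.16. Complex I, at 15.6% and a median of 0.17, had a like median. Of 77 mitochondrial ribosomal protein genes, 5 (6.49%) were higher and 0 lower, with a median of 0.04. Over all tested genes 4.12% were higher, with a median of -0.01. No test was made between these lists.

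Some markers of the cell types in the ventricle differed between the same groups, and others did not pass the test. Of all tested genes, 4.12% were higher and 4.61% lower at the adjusted threshold. The summed level of the 14 cardiomyocyte markers was 143112 to 153450.0 CPM in the LLC1 mice and 132859 to 144658 CPM in the PBS mice, a ratio of 1.09. Of the 14, Myh6 and Mybpc3 were higher and 0 were lower, 4 estimates were below 0 (Ttn -0.36, Ryr2 -0.17, Actc1 -0.05 and Tpm1 -0.02) and 8 had groups that overlapped. All 5 endothelial markers had estimates below 0 and 2 were lower, at a summed 652 to 768 CPM in LLC1 and 757 to 1008 CPM in PBS. Of the 5 fibroblast markers 3 were lower, at a summed 833 to 911 CPM in LLC1 and 918 to 1303 CPM in PBS. The 5 smooth muscle and pericyte markers summed to 755 to 817 CPM in LLC1 and 867 to 1026 CPM in PBS with 0 past the threshold, and 1 of the 3 tested leukocyte markers was lower, with sums of 65.9 to 79.1 and 70.6 to 107 CPM. Of the 3 markers of dividing cells, 2 were tested and both were lower, at a summed 1.71 to 4.21 CPM in LLC1 and 12.2 to 38.8 CPM in PBS, while 0 of 3 erythroid and 0 of 3 tested atrial markers passed the threshold. In bulk tissue, fewer cells of a type and less RNA per cell cannot be told apart, and the part of cell composition in the result was not tested.

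When the libraries were scaled to the summed cardiomyocyte markers, the median of all tested genes moved from -0.01 to -0.13, and the median of the 45 genes from 0.17 to 0.05. A rescaling shifts all genes by about the same amount, so the distance of 0.18 between these medians is fixed by the method and tests nothing. Under that scaling 28 estimates were above 0 and Ndufa7 alone passed the adjusted threshold, at a log2 fold change of 0.29 and an adjusted p of 0.0499, against 1.17% of all tested genes that were higher. The estimates of Ndufv1 and Ndufs7 were 0.21 and 0.30, with adjusted p-values of 0.0777 and 0.0598. Of all calls, 8.53% were in the higher direction under this scaling and 47.2% under TMM. Without titin in the marker sum, a setting chosen after seeing the data, Ndufs7 alone was higher (0.27, adjusted p = 0.0457), against 1.24% of all tested genes, and Ndufaf1 and Ndufaf7 were lower (-0.29 and -0.24, adjusted p = 0.0367 and 0.0411), with a median of 0.02 for the 45 genes and -0.16 for all genes. Scaling by library totals alone gave 1 higher gene, Ndufa7, against 1.4% of all tested genes, a median of 0.12 for the 45 genes, and 22.1% of all calls in the higher direction.

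**Figure D4:**
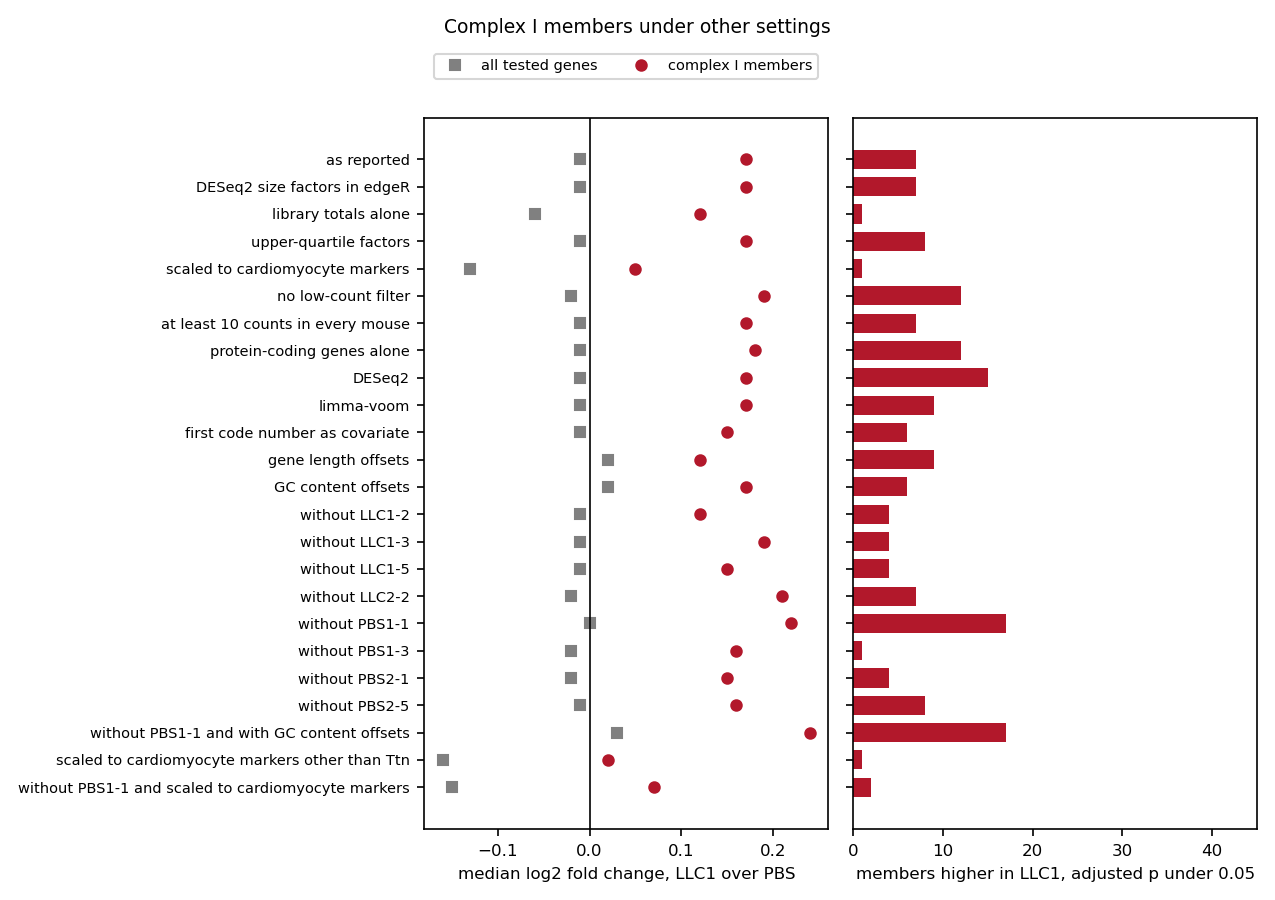
Left, median log2 fold change of the 45 complex I genes (circles) and of all tested genes (squares) under each setting; right, number of the 45 genes higher at an adjusted p under 0.05. The complex I median lies between 0.02 and 0.24, and the number ranges from 1 to 17; settings that only rescale the libraries shift circles and squares together.

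The differences went with the base composition of the transcripts. Across the 45 genes, the log2 fold change and the GC content of the longest transcript had a Pearson correlation of 0.62 and a Spearman correlation of 0.60, against 0.22 and 0.29 across all 15951 tested genes with a GC value, where genes share libraries and are not independent replicates. Median GC content was 51.4% for the 38 genes other than the Ndufaf factors and 46.3% for the Ndufaf factors. Without PBS1-1 the correlations were 0.40 and 0.46, and with offsets for GC content 0.27 and 0.28. With those offsets 6 genes were higher, 5 of them among the 7, against 4.29% of all tested genes, while Ndufa13 had an adjusted p of 0.113, and the medians were 0.17 for the 45 genes and 0.02 for all genes. The part of GC content in the result was not tested further. Median gene length was 1334 bases for the 45 genes and 3383 for all tested genes, and offsets for length gave 9 higher genes, against 6.05% of all tested genes, with 61.2% of all calls in the higher direction, and a median of 0.12 against 0.02 for all genes.

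**Figure D5:**
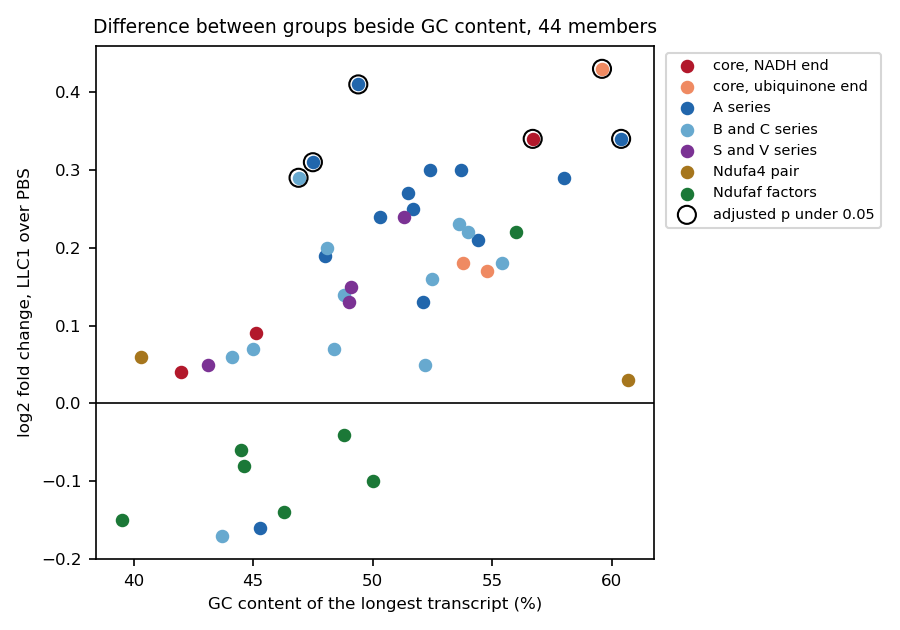
Log2 fold change, LLC1 over PBS, against the GC content of each gene's longest transcript for 44 of the complex I genes, colored by role, with 6 genes of adjusted p under 0.05 circled. The correlation was computed over all 45. The points rise from lower left to upper right (Pearson 0.62), with Ndufs7 and Ndufa13 at 59.6% and 60.4% GC and most Ndufaf factors at the lower left.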

How the data were processed

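RNA of 8 ventricle samples, 4 per group, was extracted with miRNeasy kits and sequenced by the study from TruSeq version 2 libraries as paired reads of 150 bases. The authors deposited 1 count per gene and mouse, in whole numbers and not normalized; the submitters' processing notes name CASAVA, STAR, featureCounts and mm10, while versions, the gene annotation and the strand setting are not given in the sources used here. Groups were taken from the stated treatment. The members and lists were chosen with earlier results of these data known.

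Genes kept by filterByExpr (16111) were scaled by TMM and compared by edgeR 4.0.16 (estimateDisp, glmQLFit, glmQLFTest) in R 4.3.3. Benjamini-Hochberg adjustment was made over all 16111 genes, with a call at an adjusted p under 0.05. Intervals of 95% were the estimate plus or minus 1.96 SE, where the SE is the absolute log2 fold change over the square root of F. With this normal quantile an interval can leave out 0 where the test does not pass. The interval of Ndufb5 was 0.01 to 0.38, with an unadjusted p of 0.0578 by the quasi-likelihood test. The p-values measure the spread between these mice. Alternatives used DESeq2 1.42.0 and limma 3.58.1, other scalings and filters, offsets for GC content and length (loess, span 0.3), the first number of the mouse code as a covariate, and leaving out each mouse. Values in every mouse were given for members past the threshold, the nuclear core subunits (1 member is not reported here by name and is not drawn), Ndufa4, Ndufa4l2 and the members with the 3 highest and 3 lowest levels per length; where other members are given by mouse (Ndufab1, Ndufb2, Ndufs4 and Ndufv3), they were chosen after their values were seen. In simulated counts for 16111 genes, 169 of 200 changed genes were called (84.5%), with 14 unchanged genes called, and 0 genes in data with no change. Recovery of differences as small as those of the 45 genes was not tested. Similar transcripts (at least 95% identity over 150 bases) were found with BLAST 2.17.0 in GENCODE M21. It holds all 45 gene IDs, 27 of them at the same coordinates as the deposited table. Shares of exons that overlap other genes are of the exons in GENCODE M21, which can differ from those counted. Tables and plots used matplotlib 3.10.9, scipy 1.17.1, pandas 2.3.3 and numpy 2.4.6 under Python 3.11.15. No libraries differed by as little as sampling noise. Protein and mitochondrial measurements of the study were not analysed here.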

Additional observations from a re-analysis of the deposited data

Results flagged for a closer look

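PBS1-1 was far from the other PBS mice for 3 complex I genes. Ndufb2 was at 213 CPM in PBS1-1 and at 91 to 96.3 CPM in the other PBS mice, Ndufab1 at 425 CPM against 229 to 246 CPM, and Ndufs4 at 193 CPM against 165 to 168 CPM. The same mouse was far from its group in summed levels of complex V (19379 against 18074 to 18287 CPM), of complexes II to V (37746 against 34012 to 34623 CPM) and of the cardiomyocyte markers (144658 against 132859 to 133927 CPM). Each was found by the gap of the extreme mouse to its nearest neighbor over the range of the group, past Dixon's 95% limit for 4 mice. In all, 90 groups of values of single genes and 54 of overlapping lists were looked at, and chance passes the limit in about 1 in 20 groups.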

How the results depend on the processing

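The number of complex I genes higher in LLC1, 7 as reported, was 1 when libraries were scaled by totals alone or by the cardiomyocyte markers, where 1.4% and 1.17% of all tested genes were higher. It was 12 with no filter on low counts, 12 with protein-coding genes alone and 15 with DESeq2, where 2.83%, 5.37% and 5.65% of all tested genes were higher against 4.12% as reported, and between 1 and 17 with single mice left out. The settings chosen after seeing the data gave 17 (without PBS1-1, with offsets for GC content), 1 (markers without titin) and 2 (without PBS1-1, scaled to the markers), with 6.46%, 1.24% and 1.78% of all tested genes higher. The number of lower genes was 0 as reported and in every setting but the markers without titin, where it was 2 and the median log2 fold change of the 45 genes was 0.02. Genes called among all tested numbered 1406 as reported, 2215 with the marker scaling, 3267 without titin in it, 3342 with it and without PBS1-1, and 542 to 1949 with single mice left out. The causes of these changes were not tested. No paired analysis was possible because the groups share only the code 1-3, carried by different mice. The first number of the code occurs in both groups, and with it as a covariate 6 genes were higher, against 5.25% of all tested genes, with a median of 0.15 and 1681 calls in all. Ndufa4l2 and the Ndufaf factors had the fewest counts, 114 to 1047 per mouse, and the highest SEs were those of Ndufb2 (0.23) and Ndufab1 (0.17), in which PBS1-1 lay far from the other mice.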
